A study of Mus musculus with 12 samples.

Results

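The comparison of F9 cells carrying an shRNA against Sephs1 with control F9 cells rests on 6 of the 12 arrays of the study, chosen by their labels: 3 control samples and 3 knockdown samples, named shSPS1. F9 is a male embryonal carcinoma line of strain 129, from a testicular teratoma. SPS1 is selenophosphate synthetase 1, the product of Sephs1. The samples are called biological replicates, but nothing says that they were separate cultures, so the p-values cover no more than the spread among these 6 arrays. The number of shRNAs, what the control cells carried, and whether the knockdown cells were a pool or 1 clone are not given in the sources used here. Total RNA was measured on Affymetrix arrays that read the 3 prime part of transcripts, and 18193 genes were compared after 1 probe set was kept for each gene. The other 6 arrays hold livers of male C57BL/6 mice aged 3 months, 3 controls and 3 with Sephs1 deleted by Cre under the albumin promoter, which is active in hepatocytes. They are used only in the side-by-side values near the end.

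Selenophosphate synthetases are named for making the selenium donor from which selenocysteine, the amino acid that defines selenoproteins, is built. In mammals this reaction is carried out by the product of Sephs2, itself a selenoprotein, while the product of Sephs1 lacks that activity and has been tied to redox balance and to survival of the mouse embryo. F9 cells express the pluripotency factors of embryonic stem cells and turn into primitive, parietal or visceral endoderm when treated with retinoic acid, which makes them a standard model of the first differentiation steps.

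All values are log2 expression. A difference is knockdown minus control, and a gene passed when its Benjamini-Hochberg adjusted p over all genes was under 0.05 in limma. The cells carried the label's identity on every array: Pou5f1, Sox2, Nanog and Zfp42 had control means of 13.50, 12.40, 12.47 and 12.73, against a median gene level of 6.36. Of 12 embryonal carcinoma markers 1 passed, Alpl, and the mean of the list was 11.58 to 11.70 on control and 11.61 to 11.69 on knockdown arrays. The endoderm regulators Gata4 and Foxa2 and the yolk sac product Afp were dim in both groups (4.61, 4.75 and 4.04 in controls), while other genes of the 15 endoderm markers were well expressed, among them Sparc (10.85), Lamb1 (9.48), Col4a1 (9.03) and Sox7 (8.74). Of these 15, Sox7 rose and Lamb1 fell. Fibroblast markers averaged 4.49 to 4.60 on control and 4.27 to 4.39 on knockdown arrays; the surface protein Thy1 fell by 1.41 and the 11 others did not pass. Hepatocyte markers averaged 4.64 to 4.89 and 4.54 to 4.67, and none passed. Pairs of arrays correlated at r = 0.996 to 0.999 within groups and at 0.993 to 0.996 between them, across genes, which are not independent replicates. The poly-A spike controls, added to the RNA before labelling, were lower on the 3 knockdown arrays (7.35, 6.19 and 7.03) than on the 3 control arrays (7.92, 8.09 and 7.56), a difference of -1.003 that gave p = 0.1 in a two-sided exact permutation test, the smallest p that 3 against 3 samples allow. The 3 prime minus 5 prime difference of the actin control set was 1.33 in controls and 1.10 in knockdown samples (exact permutation p = 0.1). Knockdown array 2 was the farthest from the controls in each of these measures. Their part in the results was not tested.

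Sephs1 transcript was about 4.6-fold lower in the knockdown cells. Its values were 10.04, 10.03 and 9.94 on the control arrays and 7.79, 7.84 and 7.77 on the knockdown arrays. The groups lay far apart, with a spread within each group of at most 0.06 (SD). The difference was -2.20 (SE 0.07, adjusted p = 1.3e-05), the fourth lowest among the named genes, and the 3 other probe sets of the gene gave -1.99 to -0.93. Sephs2, the selenophosphate-making relative, read 11.08, 11.20 and 11.31 in controls and 11.32, 11.37 and 11.26 in knockdown samples. These groups overlapped, and the difference of 0.12 (SE 0.08) did not pass (adjusted p = 0.47).

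Over all genes, 1310 of 18193 passed (7.2%), 465 of them higher in the knockdown cells (2.56%) and 845 lower (4.64%). An unadjusted p under 0.05 was reached by 3803 genes, and the groups did not overlap for 27.9% of genes (12.2% higher and 15.7% lower). All 465 genes that rose and all 845 that fell were among these. Where a gene passed, lack of overlap is therefore a description and no further support. Most differences were small: the median size of those that passed was 0.48, 120 rises and 319 falls exceeded 1.5-fold, and 22 rises (0.121% of all genes) and 72 falls (0.396%) exceeded 1 log2 unit. The falls were in the majority with or without the distal part of chromosome 12, from Esrrb to the chromosome's end, which is described on its own below: outside it 1255 of 17973 genes passed (6.98%), 414 higher (2.3%) and 841 lower (4.68%). That part held 51 of the 465 risers and 4 of the 845 genes that fell, and 3 of the 22 risers over 1 log2 unit. Calls depended on level: in the brighter 50% of genes 11.7% passed, 4.23% higher and 7.45% lower, against 2.72% in the dimmer 50%. The class counts below are to be read beside these shares, since many classes hold mainly brighter genes. Without knockdown array 2 the count was 524, and without control array 2, control array 3, knockdown array 1 or knockdown array 3 it was 735, 700, 851 or 665. Since RNA of whole cultures was measured, fewer cells with a transcript and less of it per cell cannot be told apart.

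**Figure D1:**
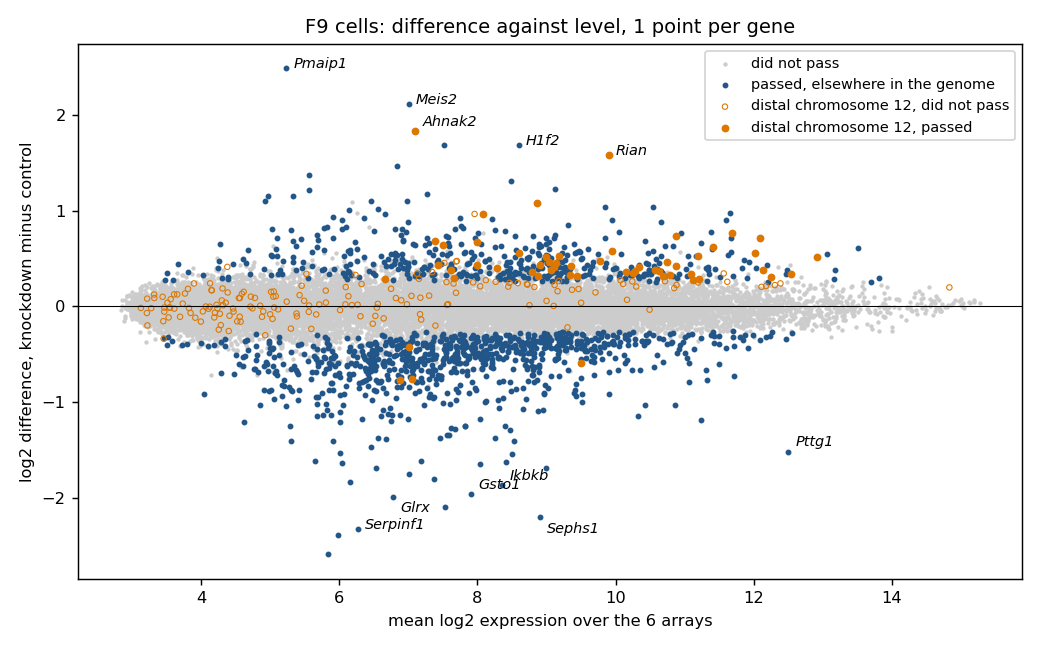
Each point is 1 gene, with its mean log2 expression over the 6 F9 arrays on the horizontal axis and its log2 difference, knockdown minus control, on the vertical axis; blue points passed outside distal chromosome 12, orange points lie within it (filled where they passed), and grey points did not pass. Among genes that passed, differences over 1 log2 unit are few, 22 above and 72 below 0, and the filled orange points lie almost all above 0.

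The largest falls joined redox enzymes, secreted proteins and regulators. Vwa5a, a von Willebrand factor A domain protein, fell by 2.60 (SE 0.12), though its other, dimmer probe set gave 0.053. Calml4, a calmodulin-like protein, read 6.995, 7.218 and 7.327 in controls and 4.55, 4.77 and 5.05 in knockdown cells. Serpinf1, which encodes the secreted serpin PEDF, went from 7.22, 7.61 and 7.49 to 4.95, 4.89 and 5.49. The highest knockdown array stood 1.94 under the lowest control array for Calml4 and 1.73 under it for Serpinf1. Cpe, a carboxypeptidase that trims prohormones and neuropeptides, fell from 8.16, 8.20 and 8.44 to 6.69, 6.44 and 6.27. Its difference was -1.80 on this probe set but only -0.92 as the mean over the gene's probe sets. Ikbkb, the kinase of the NF-kappa-B pathway that marks its inhibitor for destruction, was at 9.31, 9.28 and 9.29 in controls and at 7.44, 7.50 and 7.33 after knockdown. Its groups stood far apart (-1.87, SE 0.07, adjusted p = 3.6e-05), but its 4 other probe sets gave only -0.61 to -0.09. Mtmr11, of the myotubularin family, fell by 1.83, and its other probe set gave -0.14.

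Among genes with a control level above the 75th percentile of 8.92, Sephs1 and Ikbkb fell most, followed by Gldc, Riox1, Mgat4b and Pttg1. Pttg1, the securin that holds separase in check until anaphase, read 13.34, 13.22 and 13.22 in controls and 11.77, 11.72 and 11.73 in knockdown cells. The groups did not overlap, the difference was -1.52 (SE 0.07, adjusted p = 5.2e-05), and both other probe sets gave -1.62 and -1.31. Gldc, the glycine decarboxylase of the mitochondrial glycine cleavage system and a gene of high activity in pluripotent cells, fell from 9.81, 9.79 and 9.91 to 8.22, 8.31 and 7.93. Riox1, a nucleolar oxygenase of the Jumonji family that acts on a ribosomal protein, fell from 9.16, 9.17 and 9.34 to 7.57, 7.62 and 7.58. The nearest arrays of the groups were 1.48 apart for Gldc and 1.54 apart for Riox1. Mgat4b, an N-glycan branching enzyme of the Golgi, fell by 1.54. P3h4, part of the collagen-modifying complex of the endoplasmic reticulum, fell by 1.41, and Hsf2bp, a meiotic recombination protein, by 1.378. Inhbb, the beta B subunit of activin B, read 11.02, 10.84 and 10.86 in controls and 9.77, 9.69 and 9.81 in knockdown cells (-1.15, SE 0.08).

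**Figure D2:**
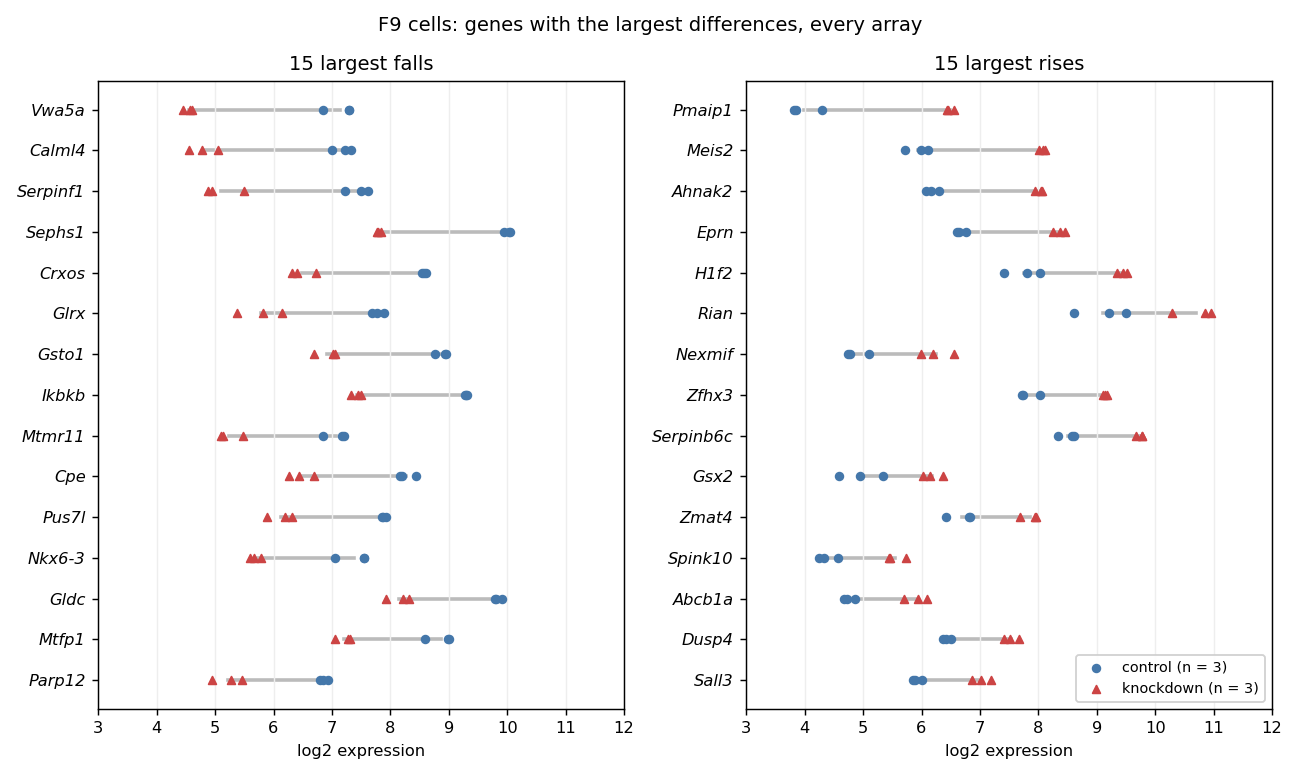
Log2 expression of the 15 genes with the largest falls (left) and the 15 with the largest rises (right) among those whose groups did not overlap; each circle is a control array and each triangle a knockdown array (3 of each). For Sephs1 the circles lie at 9.94 to 10.04 and the triangles at 7.77 to 7.84, and for Pmaip1 the circles lie at 3.81 to 4.30 and the triangles at 6.43 to 6.55.

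The largest rises began from control levels that ranged from low to high, 3.99 for Pmaip1 to 9.10 for Rian. Pmaip1, which encodes the pro-apoptotic BH3-only protein Noxa, was among the dimmest genes of the control cells (4.30, 3.85 and 3.81) and read 6.46, 6.43 and 6.55 in the knockdown cells. Its difference of 2.49 (SE 0.13, adjusted p = 8.5e-05) was the highest of any named gene. Meis2, a homeobox cofactor of HOX and PBX proteins, rose from 5.72, 6.12 and 5.99 to 8.11, 8.02 and 8.08, and its 3 other probe sets gave 1.27 to 2.11. H1f2, a linker histone, rose from 7.42, 7.81 and 8.03 to 9.35, 9.52 and 9.45. Its 2 other probe sets disagreed, at 0.068 and 1.79, and polyadenylated transcripts of such a histone are only a part of its RNA. Eprn, a long noncoding RNA, rose by 1.69 from a tight 6.60 to 6.76. Ahnak2, a large scaffold protein encoded on distal chromosome 12, read 6.08, 6.17 and 6.31 in controls and 7.95, 8.04 and 8.06 in knockdown cells (1.83, SE 0.08). The lowest knockdown array was 1.64 above the highest control array. Nexmif, a neuronal X-linked gene, rose by 1.376, Serpinb6c, an intracellular serpin, by 1.23, and Zmat4, a zinc finger protein, by 1.18. Dusp4, a phosphatase that switches off ERK and other MAP kinases, rose by 1.11, and Sall3, a zinc finger factor related to Sall4, by 1.10.

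Among genes with a control level above 8.92, Rian of the imprinted cluster on chromosome 12 rose most (1.59). Fabp3, a fatty acid binding protein, went from 11.27, 11.07 and 11.13 to 12.12, 12.11 and 12.20. Lgals3, the sugar-binding galectin-3, went from 11.16, 11.16 and 11.09 to 11.93, 12.08 and 12.13. The lowest knockdown array stood 0.83 above the highest control array for Fabp3 and 0.77 above it for Lgals3. Aard rose by 1.04, Srgn, the proteoglycan serglycin, by 0.91, and Mme, the membrane peptidase neprilysin, by 0.88. Dido1 rose by 1.04 on its brightest probe set but its 4 further probe sets ran from -0.60 to 0.43, so its direction depends on the probe set.

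Genes of selenium supply that passed were all lower. Sephs1 is counted among them, though it is the shRNA's target and its fall was set by the design. Of 14 measured genes for selenium uptake and selenoprotein synthesis, 4 fell and none rose (28.6% passed, against 7.2% of all genes): Sephs1, the receptors Lrp2 (-1.02) and Lrp8 (-0.52), which take up selenoprotein P in kidney and brain, and Trit1 (-0.36), which modifies tRNAs including that for selenocysteine. Lrp2 was dim (6.37, 6.09 and 6.13 in controls, 5.05, 5.20 and 5.28 in knockdown cells), with groups that did not overlap. Of the 14 genes, 13 were among the brighter genes, and 3 of these fell, Sephs1 included. Over the genome 7.45% of brighter genes fell. Trit1 lost its call when any 1 of 4 arrays was left out. The machinery that charges and places selenocysteine did not pass: Sepsecs read -0.11, Eefsec -0.25, Secisbp2 -0.23 and Pstk -0.14. Of 23 selenoproteins, 3 fell and 1 rose (17.4%). Selenow, a small thiol protein, fell from 9.09, 8.94 and 8.93 to 8.14, 8.01 and 8.21. Gpx2, a glutathione peroxidase, fell by 0.51 and Selenop, the plasma selenium carrier, by 0.40, both from dim levels near 6, while Selenos, of the endoplasmic reticulum's degradation machinery, rose by 0.39. The differences of Gpx4 (0.22), Gpx1 (-0.26) and Txnrd1 (0.031) did not pass. The median over the selenoproteins was -0.033, beside -0.011 over all genes.

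Among glutathione genes a pair of thiol transferases fell steeply. Of 27 measured, 6 fell and 1 rose, while 4.64% of all genes fell and 2.56% rose. Glrx, glutaredoxin 1, which removes glutathione from protein thiols, was at 7.68, 7.89 and 7.77 in controls and at 5.82, 6.15 and 5.37 in knockdown cells. Gsto1, an omega-class glutathione transferase with a related thiol activity, was at 8.93, 8.95 and 8.77 against 6.69, 7.02 and 7.05. The nearest arrays of the groups were 1.53 apart for Glrx and 1.72 apart for Gsto1, and the second probe set of each gene agreed in sign and size (-2.17 and -2.37). Gstk1, the kappa-class transferase, fell by 0.65, Gclc, which catalyses the opening step in making glutathione, by 0.41, Glrx2, the mitochondrial glutaredoxin, by 0.38, and Chac1, which degrades glutathione, by 0.29. The riser, Gstz1 (0.38), lies on distal chromosome 12, so outside it 6 fell and none rose. The count of falls ranged from 3 to 7 when an array was left out. The median over the class was -0.051. Of 18 thioredoxin, peroxiredoxin and other antioxidant genes, Sqstm1 (0.40) and the ferritin heavy chain Fth1 (0.30) rose and none fell; the values of the regulator Nfe2l2 (0.32), of Hmox1 (0.29) and of Srxn1 (0.057), known targets or partners of the same stress response, did not pass.

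Most genes of the p53 class that passed rose. Of 34 measured genes of p53 and apoptosis, 7 rose and 2 fell, against 2.56% and 4.64% of all genes. Beside Pmaip1, the risers were Ccng1, cyclin G1 (0.77), Plk2, a polo-like kinase (0.72), Trp53inp1, a p53-induced stress protein (0.71), Eda2r, a death-domain receptor (0.60), Mdm2, the ubiquitin ligase that destroys p53 (0.55), and Phlda3, a repressor of AKT (0.33). Ccng1 read 10.35, 10.68 and 10.65 in controls and 11.34, 11.34 and 11.31 in knockdown cells. Mdm2 read 9.68, 9.78 and 9.93 against 10.44, 10.28 and 10.32. Neither gene's groups overlapped, and the other probe sets of both were also positive. Cdkn1a, the p53-driven inhibitor of cyclin-dependent kinases, was at 8.63 in controls and 8.58 in knockdown cells and did not pass (adjusted p = 0.80), and Bbc3, another BH3-only gene, read 0.24 (adjusted p = 0.17). The members that fell are a pair of BH3-only genes not known mainly as p53 targets: Bcl2l11, encoding Bim, went from 7.55, 7.26 and 7.36 to 6.59, 6.73 and 6.83, and Bmf fell by 1.09. Leaving out 1 array gave 6 to 9 risers and 1 to 3 falls, and the call of Bmf was lost without knockdown array 2 (adjusted p = 0.060). The median over the class was 0.14.

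**Figure D3:**
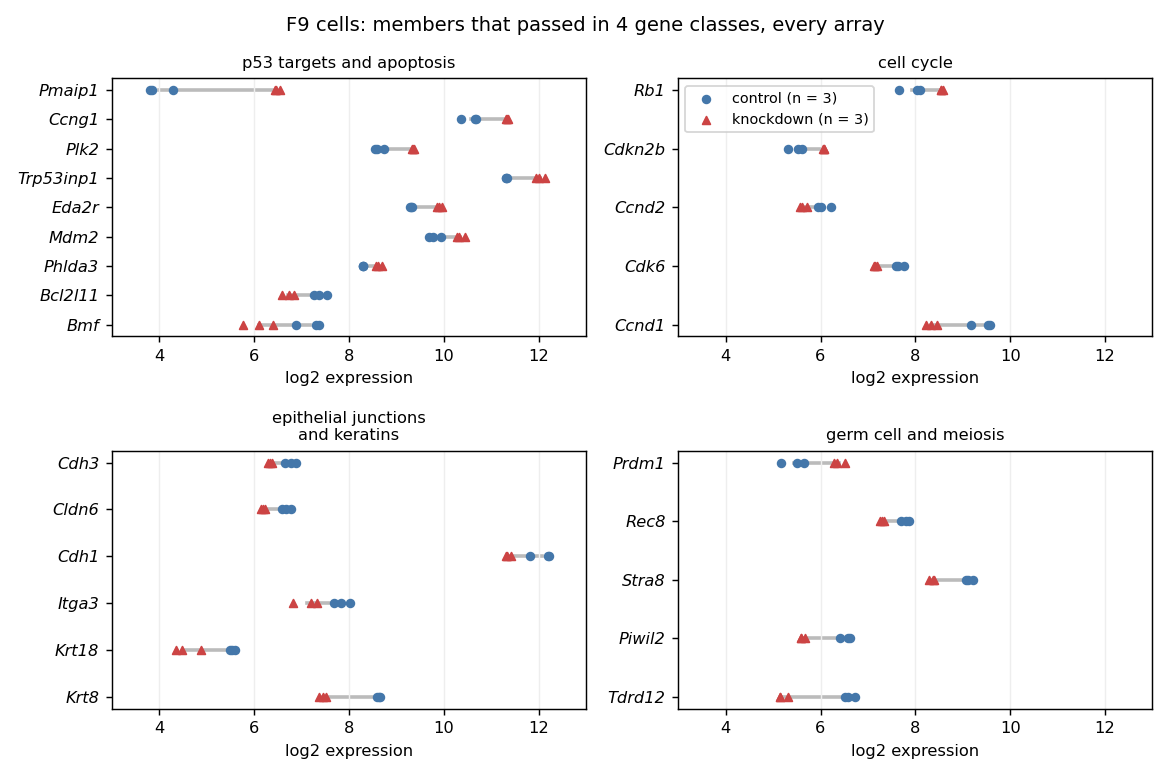
Log2 expression on every array of the members that passed in 4 gene classes, with circles for the 3 control arrays and triangles for the 3 knockdown arrays. In the panel of p53 and apoptosis genes Pmaip1 has the widest gap (2.49), and Bcl2l11 and Bmf are the members with triangles to the left of the circles.

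The cell cycle members that passed act at the cyclin D step, on a list that leaves out the securin Pttg1 described above. Of 39 measured genes, 3 fell and 2 rose (12.8%, against 7.2% of all genes). Of the 39, 34 were among the brighter genes, where 2 fell and 1 rose. Over the genome 11.7% of brighter genes passed, so the class did not stand out for its level. Ccnd1, cyclin D1, read 9.17, 9.58 and 9.53 in controls and 8.22, 8.46 and 8.32 in knockdown cells. Its groups did not overlap (-1.09, SE 0.12, adjusted p = 0.0017), and both other probe sets gave -1.31 and -1.09. Its partner kinase Cdk6 fell by 0.51 and Ccnd2, cyclin D2, by 0.43 from a dim 6.06. Ccnd2 lost its call when any 1 of 5 arrays was left out. The risers act on the same step: Cdkn2b, the inhibitor p15 of CDK4 and CDK6, rose from 5.61, 5.53 and 5.31 to 6.05, 6.08 and 6.08, and Rb1, the retinoblastoma protein, rose by 0.62. Rb1 lost its call without any 1 of the 3 knockdown arrays, and its other probe set gave -0.043. The values of Ccne1, cyclin E1 (-0.19), Cdkn1b, the inhibitor p27 (-0.26), and Myc (-0.28) did not pass. The median over the class was -0.030.

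Of 31 measured genes of the pluripotency network 4 rose and none fell (12.9% passed, against 7.2% of all genes), and the median was 0.095. Of the 31, 28 were among the brighter genes, of which 11.7% passed over the genome. Tcl1, a coactivator of AKT, and Esrrb, an orphan nuclear receptor of naive pluripotency, rose by 0.72 and 0.63, and both lie on distal chromosome 12. Outside it, Dnmt3l, the cofactor of the de novo DNA methyltransferases, rose from 10.42, 10.40 and 10.34 to 10.874, 11.003 and 10.877, and Gdf3, a TGF-beta family ligand, from 10.83, 10.81 and 10.80 to 11.18, 11.23 and 11.22. The groups of both genes were tight and did not overlap. Pou5f1 (0.14), Sox2 (0.12), Nanog (0.18) and Klf4 (-0.16) did not pass.

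Of 25 endoderm genes known to change when F9 cells differentiate, 3 rose and 1 fell, with a median of 0.00093. Of the 25, only 6 were among the brighter genes, and these held all 4 calls and had a median of 0.46. Sox7, an early primitive endoderm factor, read 8.69, 8.80 and 8.75 in controls and 9.35, 9.52 and 9.51 in knockdown cells, which did not overlap (0.71, SE 0.07, adjusted p = 0.0015). Cited2, a transcriptional cofactor, rose by 0.78 and Apoe, the apolipoprotein, by 0.77. Rhox5, a homeobox gene of the X chromosome, fell from 10.98, 10.92 and 10.91 to 9.86, 9.96 and 9.90. Gata6 (0.19), Gata4 (-0.018) and Dab2 (-0.098) did not pass. Of 30 genes of the basement membrane and matrix, 3 fell and none rose: Serpinh1, the collagen chaperone HSP47 (-0.87), Timp2, an inhibitor of metalloproteinases (-0.79), and Lamb1, the laminin beta 1 chain (-0.35). For Timp2 and Lamb1 another probe set had the opposite sign. The share of this class that passed, 10%, lay between the 7.2% of all genes and the 11.7% of brighter genes. Of 25 retinoic acid response genes, Meis2 rose and Stra8 fell, and neither the receptor Rarb (-0.33) nor the retinoic acid hydroxylase Cyp26a1 (0.062) passed.

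Several epithelial genes fell. Of 26 measured genes of junctions and keratins, 6 fell and none rose, and the median was -0.086. Over the genome 4.64% of all genes and 7.45% of brighter genes fell. The partner keratins of simple epithelia fell together: Krt8 read 8.66, 8.58 and 8.63 in controls and 7.45, 7.36 and 7.51 in knockdown cells, and Krt18 read 5.54, 5.48 and 5.59 against 4.88, 4.35 and 4.49. Neither overlapped. Cdh1, E-cadherin, was at 11.81, 12.21 and 12.19 against 11.41, 11.34 and 11.30 (-0.72, SE 0.11, adjusted p = 0.0079). Itga3, an integrin subunit that binds laminins, fell by 0.73, Cldn6, a claudin of embryonic epithelia, by 0.49, and Cdh3, P-cadherin, by 0.44. Leaving out 1 array gave 4 to 7 falls and at most 1 rise. Itga3 lost its call without control array 2 and without knockdown array 2, and its other probe sets gave -0.12 and 0.0045. Vim, the intermediate filament of mesenchymal cells, counted in the Hippo and actin class, rose by 0.34. Its call was lost when any 1 of 4 arrays was left out. Of the 12 fibroblast markers, 1 fell and none rose.

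Of 24 measured germ cell genes, 4 fell and 1 rose, with a median of -0.093, while 4.64% of all genes fell and 2.56% rose. Tdrd12 and Piwil2, both of the pathway of piRNAs that silences transposons, fell by 1.41 and 0.91. Tdrd12 was at 6.53, 6.59 and 6.73 in controls and at 5.14, 5.15 and 5.32 in knockdown cells. Stra8, which opens meiosis after retinoic acid, was at 9.06, 9.11 and 9.21 against 8.29, 8.38 and 8.38, and Rec8, the meiotic cohesin, fell by 0.49. No control array overlapped a knockdown array in these genes. The riser was Prdm1 (0.94), encoding Blimp1, a repressor needed to specify germ cells. Leaving out 1 array gave 4 to 7 falls and 1 rise. Of 13 genes of the early cleavage embryo and trophoblast, Eomes rose (0.36) and none fell.

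Transcription factors of the homeobox class moved both ways. Of 36 measured, 3 rose and 4 fell, with a median of -0.0091 (19.4% passed, against 7.2% of all genes and 11.7% of brighter genes). Besides Meis2, Zfhx3, a large zinc finger homeobox protein, rose from 8.03, 7.72 and 7.75 to 9.18, 9.11 and 9.14, and Gsx2, a forebrain patterning gene, rose by 1.22 from a dim 4.96. Crxos, expressed in embryonic stem cells and eye, fell from 8.55, 8.61 and 8.58 to 6.72, 6.41 and 6.32, although its other probe set gave -0.0069. Nkx6-3 fell by 1.69, Rhox5 by 1.03 and Satb1, an organizer of chromatin loops, by 0.55. Of 9 linker and core histone genes, H1f2 and H3f3b, which encodes the replication-independent histone H3.3 (0.48), rose. These were 22.2% of the class, while 2.56% of all genes and 4.23% of brighter genes rose. Of 30 genes of DNA methylation and chromatin, Dnmt3l was the 1 that passed. The neural factor Sox1 rose by 0.83 from a dim 5.68, while the 6 other neural markers, among them Pax6 (0.14) and Tubb3 (-0.23), did not pass. The other probe set of Sox1 gave 0.038, and Sox1 lost its call without knockdown array 2 and without knockdown array 3. The neural list averaged 5.56 to 5.74 on control and 5.64 to 5.68 on knockdown arrays.

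Many genes of distal chromosome 12 rose, most of them by a small amount. The boundary at Esrrb was drawn with these results known, so what follows is a description with no test. Of 220 measured genes from Esrrb to the chromosome's end, 51 rose (23.2%) and 4 fell. All 51 risers were among the 120 brighter genes, where 42.5% rose, against 3.72% of brighter genes elsewhere. Of those 120 genes, 107 had a positive difference, and their median was 0.28, beside -0.015 for all other brighter genes and 0.0043 for the 227 brighter genes of the rest of chromosome 12. The median of the 120 genes, measured from the control mean, was 0.28, 0.30 and 0.30 on the 3 knockdown arrays and 0.027, -0.0061 and -0.0031 on the 3 control arrays. All knockdown arrays were above all control arrays, knockdown array 2 included. The rises that passed ran from 0.28 to 1.83 with a median of 0.43, and 48 of 51 were under 1 log2 unit. Leaving out 1 array gave 24 to 51 risers.

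Positive differences were found along most of the segment. In consecutive blocks of up to 25 brighter genes, the last 5 blocks of the chromosome, which begin at Ift43, just before Esrrb, had medians of 0.38, 0.33, 0.22, 0.25 and 0.16, and the 355 other blocks of the genome ran from -0.16 to 0.10. Just before Esrrb (0.63), the brighter genes Jdp2 (0.53), Flvcr2 (0.39) and Gpatch2l (0.37) passed as well, while Ttll5 (0.0092) and Ift43 (-0.0026) between them did not. At the far end the last 7 brighter genes, from Ighm on, had a median of 0.0059, and Rapgef5 and Cdca7l among them fell. Between Esrrb and Ighm 103 of 113 brighter genes were positive. The segment's other leading genes have little in common in function. Tmed8, of a family of cargo receptors in early secretion, read 10.53, 10.48 and 10.49 in controls and 11.27, 11.24 and 11.20 in knockdown cells, with no overlap, though its dimmer probe set gave -0.00077. Alkbh1, a demethylase of nucleic acids, went from 9.67, 9.61 and 9.67 to 10.18, 10.29 and 10.23, and its other probe set gave 0.56. Noxred1 rose by 0.65 and Nrp by 0.68. The genes that fell against their neighbours were Cdca7l (-0.77), Rapgef5 (-0.76), an exchange factor for Rap proteins, Otub2 (-0.60), a deubiquitinase, and Ston2 (-0.42), an endocytic adaptor.

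**Figure D4:**
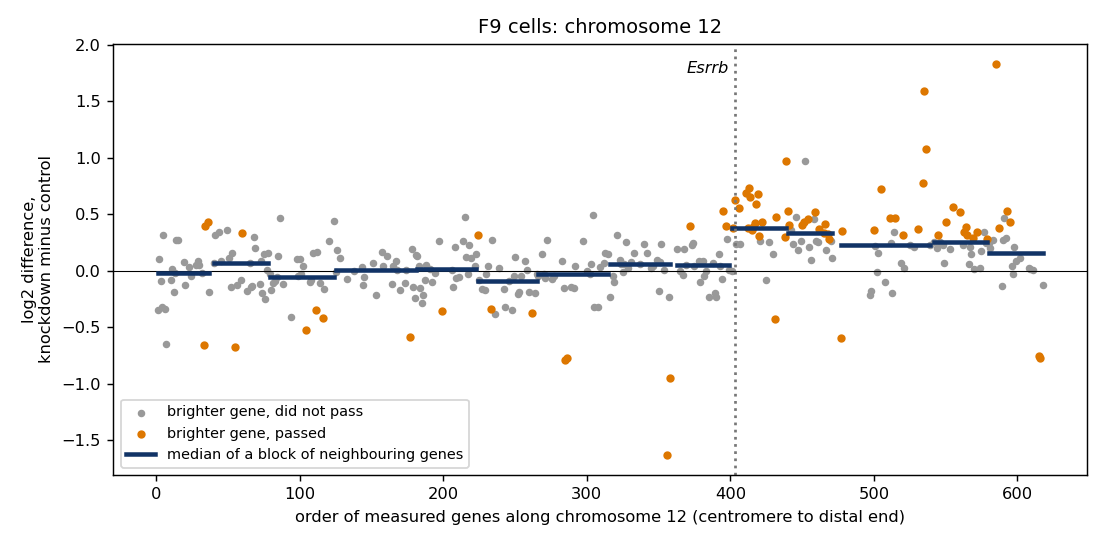
Log2 difference, knockdown minus control, of the brighter genes of chromosome 12 in their order along the chromosome; orange points passed, grey points did not, and dark bars are medians of blocks of up to 25 neighbouring genes. The bars lie near 0 until the distal part, where the last 5 blocks, from Ift43 on, lie at 0.38, 0.33, 0.22, 0.25 and 0.16.

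The imprinted cluster of Dlk1 and Meg3 lies in that segment. Meg3, a maternally expressed noncoding RNA, went from 11.32, 11.20 and 11.35 to 12.06, 12.11 and 12.02, and its 10 other probe sets gave 0.36 to 1.05. Rian read 8.61, 9.21 and 9.50 against 10.28, 10.95 and 10.85, and Mirg, which hosts a microRNA cluster, 8.36, 8.32 and 8.29 against 9.38, 9.46 and 9.36. None of the 3 overlapped, and Rian varied most within its groups. Dlk1, the paternally expressed partner, was dim (4.74 in controls) and did not pass (0.090). Without these 4 genes, 117 brighter genes of the segment had a median of 0.27 and 48 rises. Of 29 imprinted genes in the whole genome 7 rose and 5 fell (41.4% passed, against 7.2% of all genes). Outside the segment 4 rose and 5 fell. The other risers were the antisense RNA Kcnq1ot1 (0.49), Impact (0.39), Sgce (0.35) and Xist (0.55, adjusted p = 0.0499). The falls were Igf2r (-0.65), Cdkn1c (-0.46), Nnat (-0.45), Ndn (-0.40) and Phlda2 (-0.40), and Ndn had another probe set at 0.049. Leaving out 1 array gave 4 to 6 rises and 3 to 4 falls among the 29. Impact, Sgce, Xist, Cdkn1c and Phlda2 each lost their call when some array was left out. Counted over the chromosome, 59 of 622 genes of chromosome 12 rose (9.49%), and on every other chromosome with a rise the share was 0.839% to 3.24%.

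Mitochondrial and one-carbon genes held a few steep falls. Of 29 genes of mitochondrial dynamics, protein synthesis and import, 3 fell and none rose (10.3% passed). Of the 29, 28 were among the brighter genes, of which 7.45% fell over the genome. Mtfp1, which promotes mitochondrial fission, read 8.59, 9.01 and 8.98 in controls and 7.31, 7.27 and 7.06 in knockdown cells, without overlap (-1.65, SE 0.12, adjusted p = 0.00038). Gfm1, a mitochondrial elongation factor, fell by 0.66 and Timm44, of the import motor, by 0.32. Of 29 genes of oxidative phosphorylation, Ndufa1 rose (0.29) and none fell. Of 21 genes of vitamin B6 and one-carbon metabolism, 3 fell: Gldc, Pdxp, a phosphatase of pyridoxal phosphate (-0.49), and Alpl, the alkaline phosphatase of stem cells (-0.85). Alpl lost its call without knockdown array 2 (adjusted p = 0.065). The one-carbon enzymes of mitochondria Shmt2 (0.083) and Mthfd2 (-0.15) did not pass.

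Of 29 genes of fatty acid and lipid metabolism 5 fell and 2 rose, with a median of -0.083, and over all genes falls outnumbered rises too (4.64% and 2.56%). Acot1, a cytosolic thioesterase of acyl-CoA, went from 7.78, 7.86 and 7.89 to 7.01, 6.78 and 6.89. Dgat2, the last enzyme of triglyceride synthesis, fell by 0.63, Fabp5 by 0.67, Agpat2 by 0.34 and Acaca, acetyl-CoA carboxylase, by 0.28. Fabp3 and Hadha, of mitochondrial beta oxidation (0.32), rose. Calls of small size were fragile here: leaving out 1 array gave 1 to 6 falls, and Fabp5 and Acaca kept their call only without control array 1. Of 20 cholesterol genes only Dhcr7, the last enzyme of the pathway, passed (5%, against 7.2% of all genes), and it fell by 0.55. A negative difference was found in 17 of the 20, with a median of -0.080, and 46.8% of all genes were positive. Of 28 genes of glycolysis and hypoxia, the mitophagy receptor Bnip3 (0.63) and the oxygen sensor Egln1 (0.50) rose, and its relative Egln3 (-0.59) and hexokinase Hk1 (-0.44) fell.

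Lysosomal enzymes were among the risers. Of 29 genes of lysosome and autophagy 4 rose and 2 fell, with a median of 0.14. All 29 were among the brighter genes, of which 4.23% rose and 7.45% fell over the genome. Leaving out 1 array gave 2 to 4 rises and 1 to 2 falls. Hexa, the alpha chain of beta-hexosaminidase, went from 10.84, 10.89 and 10.98 to 11.53, 11.57 and 11.62, and the protease Ctsd, cathepsin D, from 10.19, 10.22 and 10.15 to 10.60, 10.89 and 10.74. Neither overlapped. Ctsz, cathepsin Z (0.34), and the autophagy receptor Sqstm1 (0.40) rose as well, while Gabarapl1 (-0.54) and Gabarapl2 (-0.30), which coat autophagosome membranes, fell. Gabarapl2 lost its call without any 1 of the 6 arrays. Of 23 genes of secretory granules, peptide processing and serpins, 4 fell and 2 rose. Pam, which amidates peptides (-0.63), fell beside Serpinf1, Cpe and Serpinh1, and Spink10 (1.16) rose beside Serpinb6c.

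Among 35 membrane transporters 2 rose and 2 fell (11.4% passed, against 7.2% of all genes). Of the 35, 27 were among the brighter genes, where 1 rose and 1 fell. Over the genome 11.7% of brighter genes passed, so the class did not stand out for its level. Abcb1a, the drug pump P-glycoprotein, rose from 4.87, 4.72 and 4.67 to 5.94, 6.10 and 5.69, and its other probe set gave 1.26. Slc1a1, a glutamate and cysteine carrier, fell from 6.23, 6.78 and 6.67 to 5.29, 5.48 and 5.60. Neither overlapped. The zinc importer Slc39a4 rose by 0.40, and Abcc1, which exports glutathione conjugates, fell by 0.37.

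In most signalling classes some members rose and others fell. From 4.55% (NF-kappa-B) to 21.4% (Hippo and actin) of a class passed, against 7.2% of all genes and 11.7% of brighter genes. Over all genes 2.56% rose and 4.64% fell. Of 33 genes of TGF-beta, activin and BMP signalling, 3 fell (Inhbb, Smad3 at -0.36 and the dim inhibitor Smad6 at -0.41) and Gdf3 rose. Of 31 WNT genes, the receptors Fzd3 (-1.07) and Fzd2 (-0.59) and the feedback gene Axin2 (-0.62) fell, and Wls, which carries WNT proteins to the surface, rose by 0.79. The second probe set of Axin2 gave 0.059, and Wls lost its call without any 1 of the 3 knockdown arrays. Of 32 genes of FGF and ERK feedback, Dusp4 and Jun (0.90) rose, and the ERK target Etv4 (-0.42), the feedback inhibitor Spry1 (-0.54) and the immediate early gene Egr1 (-0.52) fell. Of 28 Hippo and actin genes 4 rose and 2 fell. Amotl2, an adaptor that restrains YAP, went from 8.61, 8.78 and 8.81 to 9.33, 9.40 and 9.29, and Tead2, the partner factor of YAP, from 9.19, 9.15 and 9.15 to 8.48, 8.44 and 8.43. Ccn2 (0.49) and Ajuba (0.49) rose with Vim, and Tpm2, a tropomyosin, fell by 0.48. Of 32 genes of axon guidance and neural adhesion, Efnb2, an ephrin (0.79), Tenm4 (0.55) and Ntn1, netrin 1 (0.53), rose, and Robo1, the receptor of SLIT proteins (-1.54), Tenm3 (-1.25) and Sema4d (-0.59) fell. The other probe sets of Robo1 gave -0.091 and 0.076. Of 22 NF-kappa-B genes Ikbkb was the 1 that passed. Of 28 interferon response genes Bst2, which tethers virus particles (-0.71), the factor Irf1 (-0.49) and the antigen-presenting H2-K1 (-0.56) fell.

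Stress, translation and RNA classes ranged from no calls among splicing factors to 17.2% of the tRNA genes, against 7.2% of all genes. All 29 tRNA genes were among the brighter genes, of which 11.7% passed over the genome. Of 31 genes of the integrated stress and unfolded protein responses, Ddit4, an inhibitor of mTORC1 (0.46), and Herpud1 (0.26) rose, and Sdf2l1 (-0.36) and Chac1 (-0.29) fell, whereas the mediators Atf4 (0.012), Ddit3 (0.033) and Hspa5 (-0.042) did not pass. Of 18 heat shock genes the inducible Hsp70 gene Hspa1b fell from 7.88, 8.12 and 8.31 to 7.08, 7.01 and 7.18, with no overlap, Hspa4l fell by 0.43, and Cryab rose by 0.48 from a dim 4.02. Hspa1b has a near-identical copy in the genome, so its signal may hold both. Of 29 genes of tRNA modification and charging 3 fell, the pseudouridine synthase genes Pus7l (-1.75) and Pus10 (-0.26) and Trit1, and the risers Wars (0.37) and Trmt61a (0.38) both lie on distal chromosome 12. Of 25 ribosome genes Bop1 fell (-0.29), and of 26 splicing factors none passed, with Mbnl1 the nearest (0.34, adjusted p = 0.093).

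**Figure D5:**
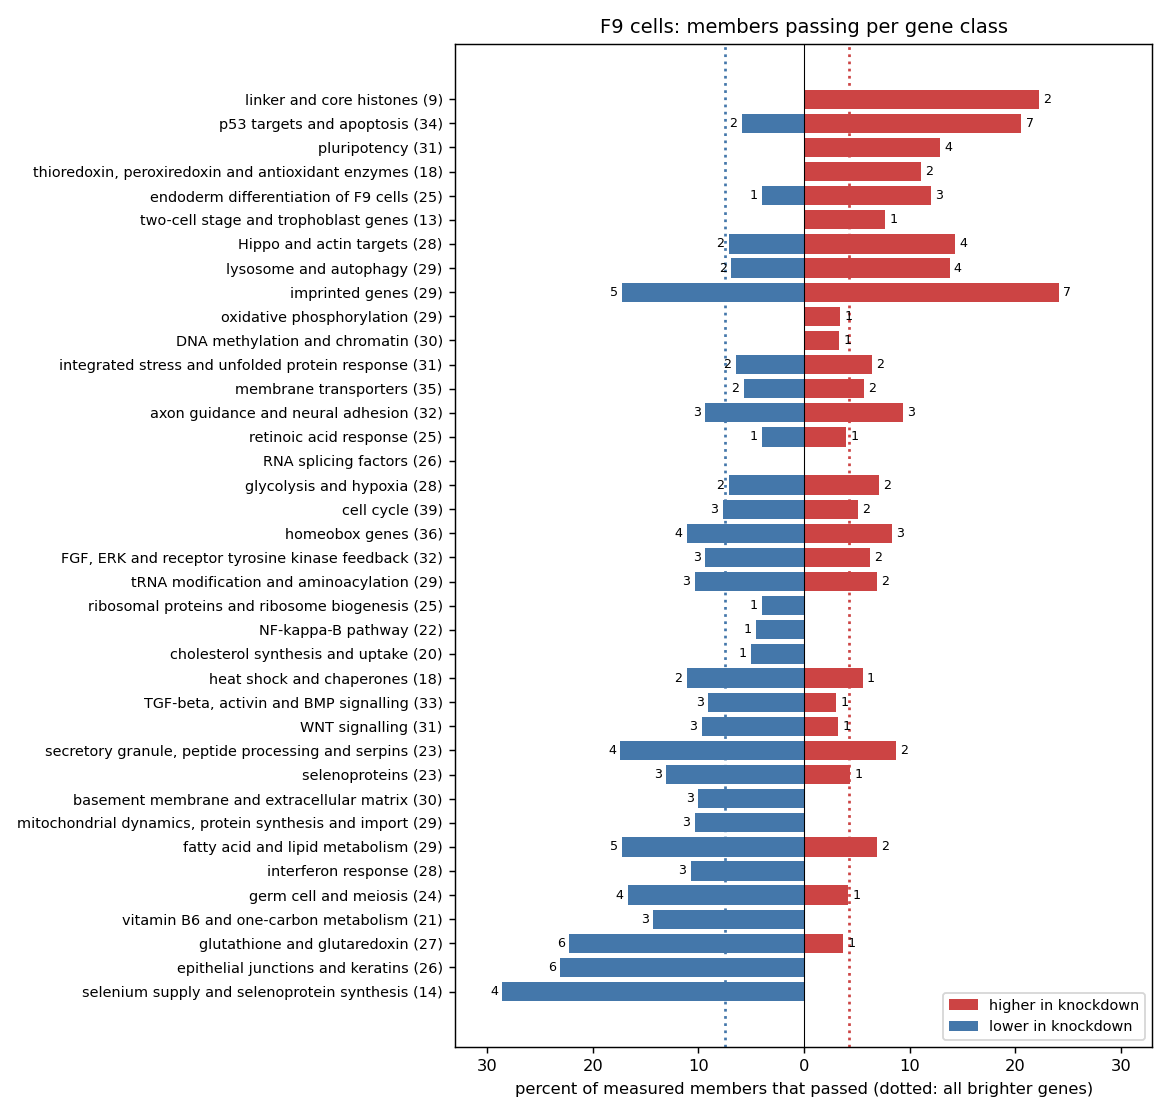
Percent of the measured members of each of 38 gene classes that passed, higher in knockdown to the right and lower to the left, with the number measured in brackets; dotted lines mark the shares among all brighter genes, 4.23% higher and 7.45% lower. Imprinted genes (7 of 29), histones (2 of 9) and p53 genes (7 of 34) reach farthest to the right, and the selenium supply genes (4 of 14, the shRNA's target Sephs1 among them) farthest to the left.

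The liver arrays give the same genes in a tissue, normalized apart from the F9 arrays, so values stand side by side with no test between the tables. The probe set of a gene in liver was the brightest over the liver arrays, so it may differ from the one used in F9. Over all genes, 6.36% had every knockout liver below every control liver and 8.42% had every one above. Of the 72 genes lower by over 1 log2 unit in F9 knockdown cells, 23 (31.9%) were lower in this sense in liver, which is 1.99% of the 1157 genes lower there, and 1 was higher. Sephs1, the gene deleted in these livers, was not among the 23. Of the 22 higher by over 1 log2 unit, none was lower and 1 was higher in liver. Besides Glrx (-5.44 in liver), Serpinf1 (-5.93) and Mtfp1 (-1.91), the 23 included Gsto1 (-1.05), Ikbkb (-1.43), Pttg1 (-0.31), Riox1 (-0.82), Mgat4b (-0.78), Ccnd1 (-1.08), Bmf (-1.92), Robo1 (-1.30) and Tenm3 (-1.46). Only 8 genes passed in liver over all 18193 (0.044%), Glrx with an adjusted p of 0.022, so for most of the 23 the liver values are a direction shared by 3 livers and no more. Ethe1, a sulfur dioxygenase of mitochondria, named here after its values were seen, fell by 1.61 in F9 and read -0.40 in liver.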

How the data were processed

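RNA (100 ng per sample, labelled by in vitro transcription) of 6 F9 samples was measured on Affymetrix arrays of 45101 probe sets. The deposited values are log2 expression; R 3.0.1 and affy 1.38.1 were used per the submitters' processing notes, in a role that is not stated, and the normalization is not given in the sources used here. Left out were 932 probe sets naming several genes and 9211 without a symbol. Of 34945 used, 34741 were found in the gene table of the mouse assembly GRCm38.p6, used only for names and gene order; the build of the array annotation is not named and no coordinates are given. For each of 18193 genes (9010 with several probe sets) the one with the highest mean over the 6 arrays was tested in R 4.3.3 by limma 3.58.1 (moderated linear model with dim genes kept, two-sided, threshold 0.05 on the Benjamini-Hochberg adjusted p across every gene), a procedure tested on simulated data. The number of arrays limits the precision.

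Members, gene lists (1155 entries, 90 without a usable probe set), the boundary on chromosome 12 and the tests were chosen with earlier results of these data known. Named genes were, among those that passed without overlap, the 15 highest and 15 lowest, the 8 next highest outside distal chromosome 12, the 8 largest per direction above the 75th percentile of control level (8.92), up to 4 per list by p (1 where none passed), 8 of distal chromosome 12, and Sephs1 and Sephs2, leaving out unnamed gene models. Genes named outside that rule, class members included, were chosen after their values were seen. Same-numbered F9 samples did not deviate together (r = -0.09, -0.02 and -0.07), so the numbers were not taken as pairs. The fit was repeated with a replicate block, without each array in turn, after quantile normalization or median centring, without the dimmest 25% or 50% of genes, with a gene's mean over probe sets or each of its other probe sets, with a trended robust prior, with array weights, without distal or all of chromosome 12, from the series' value table, and at stricter thresholds.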

Additional observations from a re-analysis of the deposited data

Results flagged for a closer look

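For 7 of the 144 named genes that passed in F9 cells without overlap, every knockdown array lay on one side of the controls while every knockout liver lay on the other side of the control livers. The difference between the cells and the tissue was not tested, since the tables were normalized separately, and none of the 7 passed in liver. Alpl, alkaline phosphatase, was -0.85 in F9 and 0.85 in liver (log2). Chac1, a glutathione-degrading enzyme, was -0.29 in F9 and 0.52 in liver, and Selenop, the plasma selenoprotein made mainly by hepatocytes, -0.40 and 0.37. Dgat2, of triglyceride synthesis, was -0.63 and 0.25. H2-K1, an antigen-presenting molecule, was -0.56 and 0.29, and Timm44, of mitochondrial import, -0.32 and 0.19. Cited2, a transcriptional cofactor, went the other way, at 0.78 in F9 and -0.41 in liver. Another 31 of the named genes were apart in the same direction in both. Over all genes, 8.42% were apart upward and 6.36% apart downward in liver, so a count of 7 among 144 is no more than that background.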

How the results depend on the processing

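The fall of Sephs1 passed under every alternative run (-2.23 to -2.18 with an array left out, -1.77 as the mean of its probe sets). Leaving out 1 array gave 524 to 1452 genes past the threshold, 167 to 514 higher, 357 to 938 lower, 497 to 1395 without distal chromosome 12, and a median of 0.27 to 0.30 for its brighter genes; fewer samples were fitted. The replicate block, for numbers that share only a label, gave 662 genes (203 higher, 459 lower, 633 without distal chromosome 12), and array weights 2285 (881, 1404 and 2206), with a distal chromosome 12 median of 0.29. An adjusted p under 0.01 left 486 (155, 331 and 463) and a difference over 1 log2 unit 94 (22, 72 and 91). The higher genes became 770 without the dimmest 50% and 722 with an intensity trend and robust prior. Of 175 genes followed that passed, 68 lost their call under at least 1 alternative and 60 when some array was left out; the cause was not tested. Without control array 1, 2 or 3, or knockdown array 1, 2 or 3, calls were lost for 12, 42, 36, 32, 59 and 44 of these genes. The 60 were Abcc1, Acaca, Agpat2, Ajuba, Alpl, Bmf, Bop1, Ccnd2, Cdh3, Cdkn1c, Chac1, Cryab, Ctsz, Ddit4, Dgat2, Dhcr7, Egln1, Egr1, Eomes, Fabp5, Fth1, Fzd2, Gabarapl2, Gclc, Gdf3, Glrx2, Gstz1, H2-K1, H3f3b, Hadha, Herpud1, Hk1, Hspa4l, Impact, Irf1, Itga3, Jun, Lamb1, Ndufa1, Pam, Phlda2, Phlda3, Pus10, Rb1, Sdf2l1, Selenop, Selenos, Sgce, Smad3, Smad6, Sox1, Spry1, Sqstm1, Timm44, Trit1, Trmt61a, Vim, Wars, Wls and Xist. Another probe set of the same gene had the opposite sign for Ankrd33b (-0.0768), Axin2 (0.0592), Bmf (0.0437), Bop1 (0.0825), Cryab (-0.0172), Dido1 (-0.599), Fzd3 (0.0421), H2-K1 (0.0125), H2aw (-0.00297), Hspa4l (0.0791 and 0.175), Itga3 (0.0045), Lamb1 (0.185), Ndn (0.0493), Rb1 (-0.0433), Robo1 (0.0756), Sema4d (0.128), Timp2 (0.115), Tmed8 (-0.000767), Tpm2 (0.0696), Ttn (-0.0785 and -0.00807), Vwa5a (0.0527) and Wls (-0.0288); the cause was not tested.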
